A study of Mus musculus with 18 samples.

Results

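The mutant effect, which is the log2 ratio of mutants over controls at 1 stage, was compared between the embryonic stages E10.5 and E9.5 (days after conception) in mouse forelimb buds by RNA sequencing. The change of effect is the effect at E10.5 minus the effect at E9.5, and it was computed for 20118 genes from 12 of the 18 libraries of the series. The mutants of both stages were Esco2fl/fl;Prrx1-CreTg/0, with both Esco2 alleles flanked by loxP sites and a Cre transgene under Prrx1 regulatory sequence. The controls of both stages were Esco2fl/fl, with the same alleles and no Cre. There were 3 mutant and 3 control libraries at E10.5, and 3 mutant and 3 control libraries at E9.5. RNA came from individual limb buds. Whether the 3 buds of a group were from different embryos is not in the labels, and p-values here therefore measure the spread between libraries alone. Effects of Cre and of Esco2 loss cannot be told apart, because the controls lacked Cre.

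Esco2 encodes an acetyltransferase that locks cohesin onto replicated DNA, so that sister chromatids stay together until mitosis. Cells that divide with damaged or badly segregated chromosomes commonly activate p53, a transcription factor whose targets halt the cell cycle, feed back on p53, repair DNA or start apoptosis. Between these stages the forelimb bud grows out under FGF signals from the apical ectodermal ridge, mesenchyme acquires proximal, distal, anterior and posterior identities, and the first cells enter the cartilage lineage marked by Sox9. Prrx1-Cre is known to act in limb mesenchyme and not in surface ectoderm or blood, whose cells in the bud keep Esco2.

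Levels are in CPM, counts scaled to a common library size, and changes are log2 values ± SE with 3 libraries a group. "Rose", "fell", "passed" and "called" mean an adjusted p under 0.05 (quasi-likelihood F test of edgeR, Benjamini-Hochberg over all 20118 genes). A change of effect called higher means that mutants over controls was more positive at E10.5 than at E9.5, and lower means that it was more negative. The 12 libraries held 36390557 to 56230058 counts each. Esco2 itself (ENSMUSG00000022034.10, on chromosome 14 of mm10 from 65819038 up to 65833994) was at 21.9, 18.9 and 22.3 CPM in the E10.5 mutants, against 29.4, 33.6 and 28.1 CPM in the E10.5 controls. Levels at E9.5 were 15.3, 17.8 and 19.8 CPM in mutants, against 25, 28.1 and 27.2 CPM in controls. The mutant libraries were all below the controls at both stages, and the change of effect was 0.07 ± 0.20 (adjusted p = 0.86). Counts over all exons include reads outside a deleted part, so they check the deletion only weakly. The forelimb gene Tbx5 was at 50.8 CPM or more and the limb mesenchyme gene Prrx1 at 153 CPM or more in each of the 12 libraries.

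A pair of libraries stood apart, replicate 1 of the E9.5 controls with 22294 genes detected and replicate 3 of the E10.5 mutants with 1.96% of counts from haemoglobin genes and 8.67 CPM of the X-inactivation transcript Xist, which no other of the 12 libraries had above 0.905 CPM. Haemoglobin took 0.634% and 0.988% of counts in the other E10.5 mutants, and 0.294% to 0.600% in the E10.5 controls. Across 14020 genes with a mean log2 CPM above 0, Spearman's rho with gene length was -0.487 for the change of effect, -0.272 for the effect at E10.5 and 0.511 for the effect at E9.5. The deviation of a library from the mean of its stage had a rho with gene length of 0.0346 to 0.502 in the E9.5 mutants, and of -0.598, 0.495 and 0.178 in replicates 1, 2 and 3 of the E9.5 controls. At E10.5 it was -0.287 to -0.201 in mutants and 0.145 to 0.287 in controls. Counts of called genes are therefore given also without this pair of libraries and with a smooth trend on gene length removed from every library.

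The mutant effect widened between the stages. At E10.5, 2802 of 20118 genes were called (13.9%), 1469 higher (7.3%) and 1333 lower (6.63%) in mutants, and at E9.5 37 were called (0.184%), 36 higher (0.179%) and 1 lower (0.00497%). The change of effect itself passed for 446 genes (2.22%), 186 higher (0.925%) and 260 lower (1.29%), and 4422 genes had an unadjusted p under 0.05. Of the 2768 genes called at E10.5 and not at E9.5, the change passed for 428 (15.5%), so most of the genes called at 1 stage alone were not shown to differ between the stages. In these bulk samples, fewer cells of a type and less RNA per cell cannot be told apart.

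Among the 186 higher genes, the effect appeared in 172, which were called at E10.5 and not at E9.5, and it grew in 9, which were higher in mutants at both stages and more so at E10.5. A lower level in mutants at E9.5 was no longer called at E10.5 for 1 gene, and 4 genes were called at neither stage. Among the 260 lower genes, the effect appeared as a lower level in mutants in 256, a higher level in mutants at E9.5 was no longer called at E10.5 for 1, and 3 were called at neither stage. No gene with a passed change was called at both stages in opposite directions, and none was called at both in the same direction with a smaller effect at E10.5. The median effect of the higher genes was 1.15 at E10.5 and -0.04 at E9.5, and that of the lower genes was -1.07 at E10.5 and 0.05 at E9.5. Over all 20118 genes the medians were 0.02 at E10.5 and -0.01 at E9.5. An effect below 0.5 in either direction at E9.5 was estimated for 147 of the higher genes and 240 of the lower genes.

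Without the pair of libraries that stood apart, 155 genes were called higher and 232 lower, of which 106 and 182 were among the 186 and the 260. With the length trend removed, 272 were called higher and 312 lower, of which 152 and 217 were among the 186 and the 260. The counts moved more when single libraries were left out. Without any 1 E10.5 control, any 1 E9.5 mutant, or replicate 2 or 3 of the E10.5 mutants, 40 to 106 genes were called higher and 88 to 189 lower, with the fewest for replicate 3 of the E10.5 mutants. Without replicate 1 or replicate 2 of the E9.5 controls, 297 and 1379 were called higher and 416 and 1168 lower, and without replicate 3 of the E9.5 controls or replicate 1 of the E10.5 mutants, 254 and 155 higher and 299 and 208 lower. The change passed in each of the 12 fits that left out 1 library for 35 of the higher genes and 81 of the lower genes, and all 446 estimates kept their sign in every such fit. These fits share most libraries with the fit that chose the 446, so kept signs are no independent evidence.

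**Figure D1:**
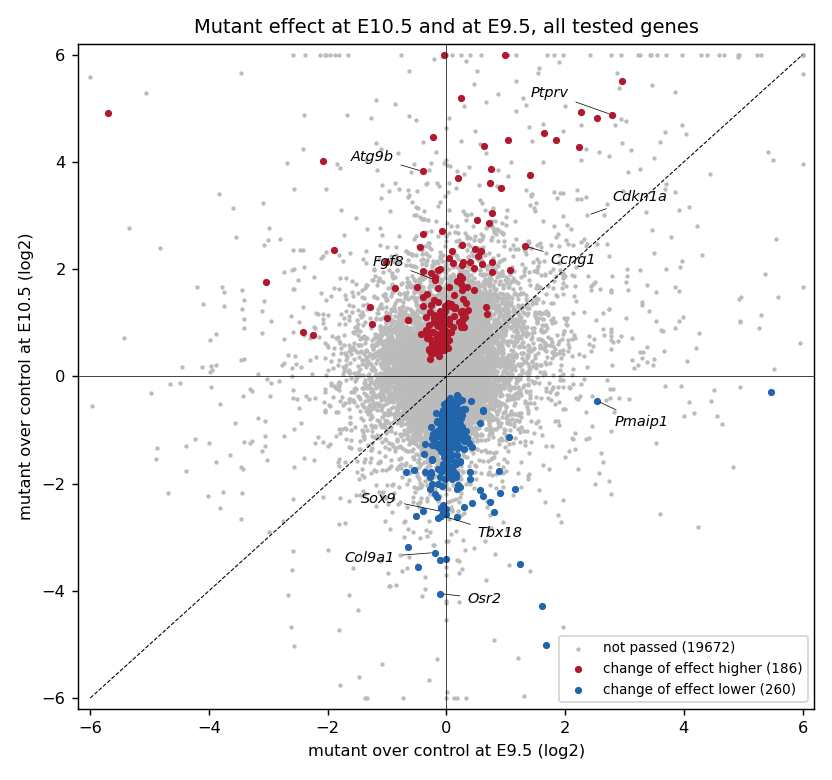
Mutant over control in log2 at E10.5 (vertical axis) against E9.5 (horizontal axis), 1 point a gene, with values beyond the axes drawn at their edge and the dashed line where both effects are equal. The 186 genes with a change called higher (red) and the 260 called lower (blue) lie mostly close to an effect of 0 at E9.5, while Pmaip1, Ccng1 and Ptprv stand to the right because they were already higher in mutants then.

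By construction, the change of effect equals the change from E9.5 to E10.5 in mutants minus that in controls, so the same libraries show which genotype moved. In mutants 2824 genes differed between the stages (14%), 1938 higher (9.63%) and 886 lower (4.4%) at E10.5, and in controls 5523 (27.5%), 3009 higher (15%) and 2514 lower (12.5%). Of the 260 genes with a lower change of effect, 174 were not called with stage in mutants and rose in controls, 35 rose in both genotypes, 20 fell in mutants and rose in controls, and 31 fell in mutants and were not called in controls. Of the 186 higher genes, 88 rose with stage in mutants and were not called in controls, 69 were not called in mutants and fell in controls, 20 rose in mutants and fell in controls, 5 fell in both and 4 rose in both. The median change with stage of the lower genes was -0.10 in mutants and 1.02 in controls, and that of the higher genes was 0.71 in mutants and -0.55 in controls. The lower genes were thus mainly ones that controls raised between the stages, and the higher genes were a mixture of rises in mutants and falls in controls.

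**Figure D2:**
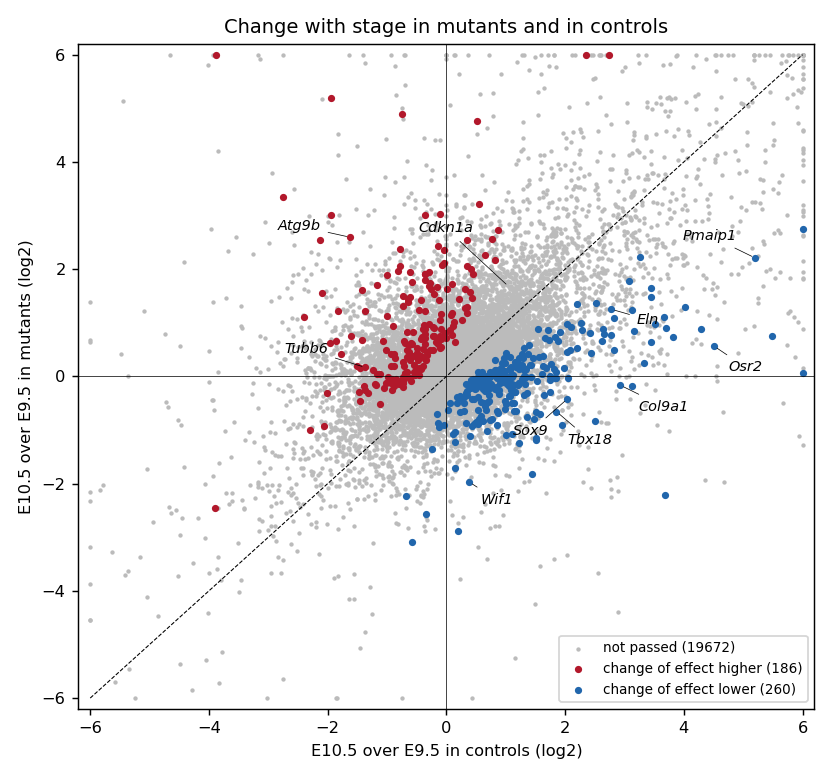
Change from E9.5 to E10.5 in log2 in mutants (vertical axis) against controls (horizontal axis), 1 point a gene, with values beyond the axes drawn at their edge. Genes with a lower change of effect (blue) lie below the dashed line of equality, mostly where controls rose, and genes with a higher change (red) lie above it.

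Cartilage genes made up the list with the most lower changes in number. Of 22 tested members, the change of effect was lower for 6 (27.3%, against 1.29% of all genes) and higher for 0, and the list's median change was -0.98, against 0.05 over all genes tested. The 6 were the transcription factor genes Sox9 and Sox5 and the collagen genes Col9a1, Col9a2, Col9a3 and Col11a1. At E10.5 11 of the 22 members were lower in mutants, against 6.63% of all genes, and 2 higher, against 7.3%. At E9.5 none was called in either direction, and 2 members (Snorc and Scrg1) were left out for low counts.

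Sox9 (ENSMUSG00000000567.5, on chromosome 11 of mm10 from 112782224 up to 112787760), the master regulator of cartilage fate, was at 24.5, 22.3 and 18 CPM in the E10.5 mutants, against 105, 139 and 128 CPM in the E10.5 controls. Levels at E9.5 were 24.9, 26.3 and 35.5 CPM in mutants, against 34.2, 26.5 and 29.98 CPM in controls. The 3 E10.5 controls stood above the other 9 libraries, the groups did not overlap at E10.5 and they did overlap at E9.5. Its effect was -2.52 ± 0.19 at E10.5 (adjusted p = 2.97e-07) and -0.07 ± 0.18 at E9.5 (adjusted p = 0.895), a change of -2.46 ± 0.26 (adjusted p = 0.000303). With stage, the estimate was -0.42 in mutants (adjusted p = 0.15), and Sox9 rose by 2.04 in controls (adjusted p = 1.19e-06). Col9a1, which encodes a chain of the cartilage collagen IX, was at 14.8, 12 and 10.7 CPM in the E10.5 mutants, against 112, 136 and 118 CPM in the E10.5 controls. In mutants of E9.5 the libraries had 10.8, 14.9 and 16.4 CPM, against 13.1, 18.7 and 16.1 CPM in controls of that stage, so that again only the E10.5 controls were high. Its change of effect was -3.09 ± 0.40 (adjusted p = 0.000858).

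Sox5, which works with Sox9 on cartilage genes, was at 10.9 ± 0.631 CPM in mutants and 37 ± 3.13 CPM in controls at E10.5 (mean ± SD, n = 3 each), with a change of effect of -1.68 ± 0.20 (adjusted p = 0.000456). Col11a1, a fibrillar collagen gene of cartilage, was at 38.9 ± 3.56 CPM in mutants and 78.5 ± 6.63 CPM in controls at E10.5, with a change of -1.34 ± 0.26 (adjusted p = 0.0148). The other collagen IX genes were low and close to the threshold, with changes of -2.54 ± 0.60 for Col9a2 (adjusted p = 0.038) and -1.66 ± 0.42 for Col9a3 (adjusted p = 0.0498). Sox9, Sox5, Col9a1 and Col11a1 passed in all 12 fits with 1 library left out. Col9a2 and Col9a3 passed only in the fits without replicate 1 of the E10.5 controls or replicate 2 of the E9.5 controls, with adjusted p up to 0.111 and 0.127 in the others. Without the pair of libraries that stood apart, 4 members passed lower. With E10.5 restricted to the 4 libraries whose names begin with 41, a number the labels do not explain, 3 did. Col11a1 missed the threshold under that restriction (adjusted p = 0.0708).

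Of 24 tested connective tissue matrix genes, the change of effect was lower for 4, against 1.29% of all genes, higher for 0 and not called for 20. The median change was -0.98, and 22 of the 24 estimates were negative. At E10.5 10 members were lower in mutants, against 6.63% of all genes, and 0 higher, and at E9.5 none was called. Without the pair of libraries that stood apart 3 members passed lower, and with the length trend removed 3 did. With E10.5 restricted to the 4 libraries named 41, 1 did. Eln, which encodes elastin, was at 5.39, 6.44 and 7.18 CPM in the E10.5 mutants, against 14.3, 16.9 and 15.8 CPM in the E10.5 controls. A day earlier, at E9.5, mutants were at 3.12, 2.58 and 2.27 CPM, against 2.54, 2.13 and 2.2 CPM for controls. It rose with stage in both genotypes, by 1.25 in mutants (adjusted p = 2.74e-05) and by 2.78 in controls (adjusted p = 6.1e-09), so the change of effect was -1.53 ± 0.21 (adjusted p = 0.0011). Col1a2, a chain of type I collagen, was at 249 ± 28.5 CPM in mutants and 725 ± 60.8 CPM in controls at E10.5, against 182 ± 37.1 CPM in mutants and 176 ± 56.5 CPM in controls at E9.5. Its change was -1.58 ± 0.29 (adjusted p = 0.00986), which missed the threshold with E10.5 restricted to the libraries named 41 (adjusted p = 0.0906).

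The other 2 were the fibrillar collagen genes Col3a1 (change -1.11 ± 0.25, adjusted p = 0.0273) and Col5a2 (-0.96 ± 0.22, adjusted p = 0.0361). Col3a1 passed without any 1 control E9.5 library, replicate 1 of the E10.5 mutants or replicate 1 of the E9.5 mutants, and missed the threshold without any of the other 7 libraries (adjusted p up to 0.0874). It also missed the threshold with the length trend removed (adjusted p = 0.0638). Col5a2 passed in 4 of the 12 fits, those without a control E9.5 library or without replicate 1 of the E9.5 mutants (up to 0.0991 in the others). Eln and Col1a2 passed in all 12. The summed level of the list was 1563 to 1836 CPM in the E10.5 mutants, against 3381 to 3595 CPM in the E10.5 controls, and 1653 to 2421 CPM in the E9.5 mutants, against 1145 to 2192 CPM in the E9.5 controls.

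The most negative change of effect among the named genes was that of Osr2, an odd-skipped family transcription factor of joints and tendons. It was at 1.71, 2.58 and 1.35 CPM in the E10.5 mutants, against 22.5, 33.7 and 37.6 CPM in the E10.5 controls. At E9.5 the mutants held 1.18, 0.933 and 1.75 CPM, against 1.7, 1.5 and 0.926 CPM in controls, so the E10.5 controls alone were high. Its change of effect was -3.94 ± 0.52 (adjusted p = 0.000858). The same shape was found for Sned1, which encodes a matrix protein, with 7.09 ± 1.88 CPM in mutants and 76.5 ± 13.3 CPM in controls at E10.5 and a change of -3.32 ± 0.45 (adjusted p = 0.000986). Fbxo41, an F-box protein gene, had a change of -3.40 ± 0.60 (adjusted p = 0.00757).

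Several of the lower genes with the smallest adjusted p had small library spreads. Cacna1g, which encodes a subunit of T-type calcium channels, was at 53.3, 52.8 and 50.1 CPM in the E10.5 mutants, against 163, 179 and 196 CPM in the E10.5 controls. In the E9.5 libraries it ranged from 40.8 to 58.4 CPM, with mutants and controls overlapping. Its change was -1.87 ± 0.19 (adjusted p = 0.000303), the smallest adjusted p of the comparison together with those of Sox9 and Atg9b. Dnm1, which encodes the endocytic GTPase dynamin 1, had a change of -1.30 ± 0.15 (adjusted p = 0.00039). The corepressor gene Runx1t1 had a change of -2.09 ± 0.24 (adjusted p = 0.000406), and Egflam, which encodes a matrix protein, one of -1.60 ± 0.20 (adjusted p = 0.000723). For Nfatc4, a calcineurin-dependent transcription factor gene, the change was -1.30 ± 0.16 (adjusted p = 0.000723), and for Efnb3, an ephrin ligand gene, it was -1.06 ± 0.13 (adjusted p = 0.000728). All of the genes in this and the preceding paragraph passed in each of the 12 fits with 1 library left out.

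**Figure D3:**
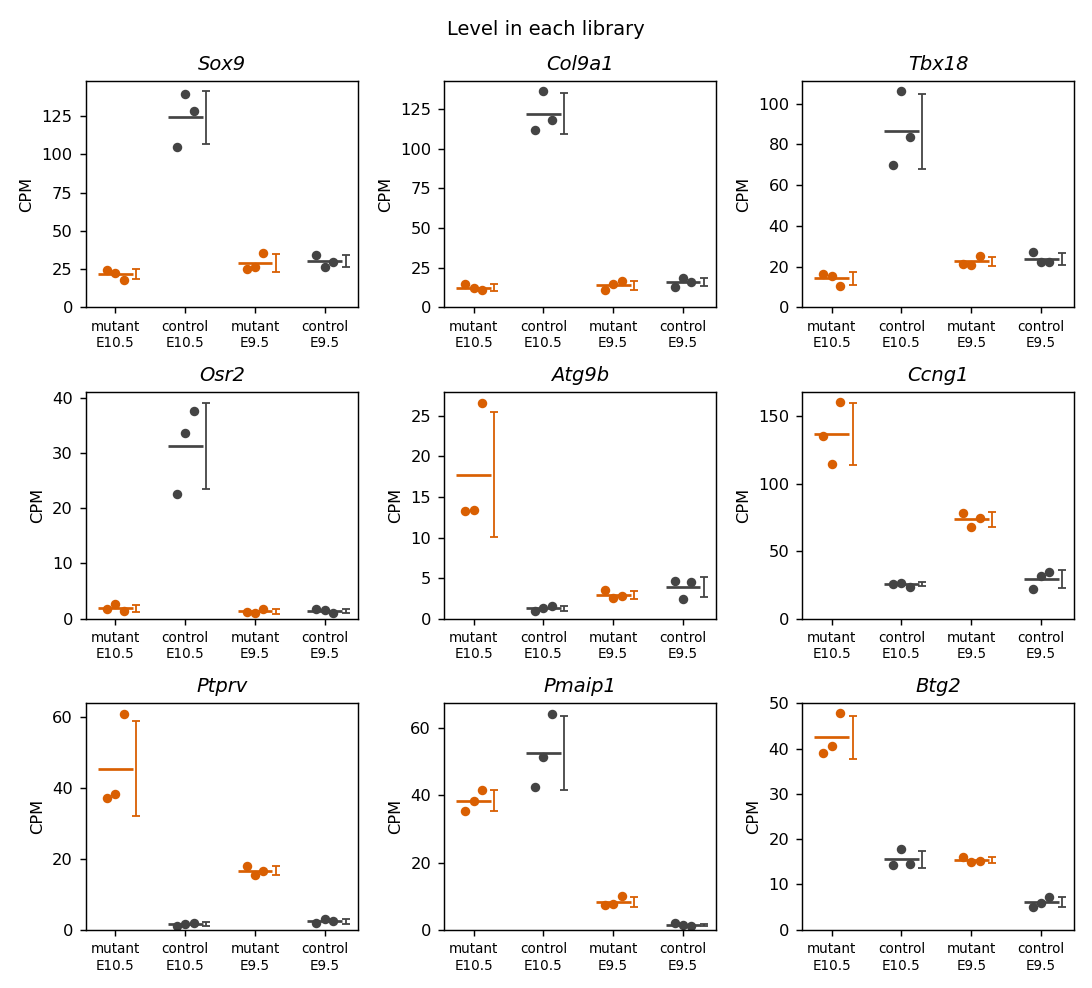
CPM in each library (points), group mean (line) and SD (error bar) for 9 genes, mutants in orange and controls in grey, E10.5 left of E9.5. Sox9, Col9a1, Tbx18 and Osr2 are high in the 3 E10.5 controls alone, Atg9b, Ccng1 and Ptprv are highest in the E10.5 mutants, Pmaip1 separates the genotypes at E9.5, and Btg2 is higher in mutants at both stages.

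A few limb identity and limb axis genes had a lower change of effect. It was lower for 2 of 5 limb identity markers, 2 of 11 proximal genes, 1 of 9 anterior genes (Alx4) and 1 of 16 genes of the list of posterior limb and Shh response (Osr1), against 1.29% of all genes, and higher for 0 in each of these 4 lists. In the distal limb and FGF response list 1 gene was higher (Etv4) and 1 lower (Cyp26b1) of 21. Single called genes in such short lists describe those genes and not the lists. The median changes of the first 4 lists were -1.35, -0.62, -0.70 and -0.53, against 0.05 over all genes. Tbx18, a T-box gene of the proximal bud, was at 16.5, 15.7 and 10.7 CPM in the E10.5 mutants, against 69.9, 106 and 83.5 CPM in the E10.5 controls. Levels at E9.5 were 21.6, 20.9 and 25.3 CPM in mutants, against 27.3, 22.1 and 22.4 CPM in controls. The genotypes overlapped at E9.5 and were far apart at E10.5, and the change was -2.51 ± 0.29 (adjusted p = 0.00039). Shox2, which the proximal skeleton requires, was at 72.6 ± 14.6 CPM in mutants and 267 ± 41 CPM in controls at E10.5, with a change of -1.61 ± 0.26 (adjusted p = 0.00537). Unlike Tbx18, Shox2 rose with stage in mutants too, by 0.80 (adjusted p = 0.00745), and by 2.41 in controls (adjusted p = 2.96e-07).

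Tbx5, which starts the forelimb bud, was at 63, 50.8 and 65.5 CPM in the E10.5 mutants, against 148, 165 and 166 CPM in the E10.5 controls. In mutants of E9.5 the libraries had 108, 118 and 105 CPM, against 97.3, 125 and 109 CPM in controls of that stage. It fell by 0.88 in mutants from E9.5 to E10.5 (adjusted p = 0.000269) and rose by 0.53 in controls (adjusted p = 0.00787), so the change of effect was -1.41 ± 0.19 (adjusted p = 0.000986). Prrx1, a homeobox gene of limb mesenchyme, was at 283, 181 and 153 CPM in the E10.5 mutants, where replicate 1 was above the other 2, and at 533, 551 and 528 CPM in the E10.5 controls. Its change was -1.35 ± 0.22 (adjusted p = 0.00548). Osr1, another odd-skipped gene, rose in both genotypes with a change of effect of -1.79 ± 0.30 (adjusted p = 0.00588).

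Alx4, which marks anterior mesenchyme, was at 32.6, 28 and 24.8 CPM in the E10.5 mutants, against 103, 99.97 and 103 CPM in the E10.5 controls, with a change of -1.86 ± 0.36 (adjusted p = 0.0135). It missed the threshold without replicate 3 of the E10.5 mutants (adjusted p = 0.0524) and without the pair of libraries that stood apart (adjusted p = 0.102), while the other 5 genes of these lists passed under each of these settings. Shh, the signal of the posterior bud, was at 12.8, 8.94 and 10.9 CPM in the E10.5 mutants, against 18.1, 19.9 and 15.6 CPM in the E10.5 controls, and its change was -0.16 ± 1.16 (adjusted p = 0.952), with an interval too wide to place the effect (95% interval -2.63 to 2.30).

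In the Wnt and retinoic acid lists, each passed change was lower. Of 19 Wnt pathway genes, 3 were lower, against 1.29% of all genes, and 0 higher, with a median change of -0.49. Wif1, which encodes a secreted Wnt inhibitor, was at 4.64, 2.86 and 4.02 CPM in the E10.5 mutants, against 15.3, 26.2 and 21.6 CPM in the E10.5 controls. A day earlier, at E9.5, mutants were at 16.8, 14 and 14.5 CPM, against 19.2, 15.7 and 13.3 CPM for controls. Between the stages it fell by 1.97 in mutants (adjusted p = 2.55e-05) and was not called in controls (0.39, adjusted p = 0.206), and its change of effect was -2.36 ± 0.32 (adjusted p = 0.00107). Rspo3, which encodes a secreted enhancer of Wnt signalling, rose in both genotypes and more in controls (change -1.88 ± 0.33, adjusted p = 0.00757). Nkd2, which encodes an intracellular Wnt antagonist, had a change of -0.95 ± 0.19 (adjusted p = 0.0146), which missed the threshold without replicate 3 of the E10.5 mutants (adjusted p = 0.0524).

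Of 12 retinoic acid genes, 2 were lower, against 1.29% of all genes, and 0 higher, although the median change of the list was 0.30. Stra6, which encodes the retinol uptake receptor, had a change of -1.33 ± 0.22 (adjusted p = 0.00564), and Rarg, a retinoic acid receptor gene, one of -0.71 ± 0.14 (adjusted p = 0.0144), lost without replicate 3 of the E10.5 mutants (adjusted p = 0.0524). Of 19 BMP and TGF-beta genes 1 was higher, against 0.925% of all genes, and 1 lower, against 1.29%. Of the 19 estimates 15 were positive, with a median change of 0.35. The higher gene was Bambi, which encodes a decoy receptor (0.99 ± 0.20, adjusted p = 0.0165), and the lower was the receptor gene Bmpr1b (-1.19 ± 0.27, adjusted p = 0.0308). Bmpr1b passed in 5 of the 12 fits with 1 library left out, those without a control E9.5 library, replicate 1 of the E10.5 mutants or replicate 1 of the E9.5 mutants (adjusted p up to 0.0959 in the others). Bambi was lost without replicate 2 of the E10.5 mutants, replicate 3 of the E10.5 mutants or replicate 3 of the E9.5 mutants (up to 0.057). Of 7 nuclear factor I and Ebf genes 2 were lower, against 1.29% of all genes, and 0 higher, with a median change of -0.22. The 2 were Ebf3 (-1.21 ± 0.24, adjusted p = 0.0166) and Ebf2 (-1.14 ± 0.29, adjusted p = 0.0491). With the length trend removed 1 member of this list passed lower. Ebf3 was lost without replicate 2 of the E10.5 controls, replicate 3 of the E10.5 mutants or replicate 3 of the E9.5 mutants, and Ebf2 passed only without replicate 2 of the E9.5 controls, replicate 3 of the E9.5 controls or replicate 1 of the E9.5 mutants (up to 0.135).

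Genes of the apical ectodermal ridge with a passed change were higher. Of 15 ridge genes 2 were higher, Fgf8 and Dlx1, against 0.925% of all genes, and 0 lower, with a median change of 1.03. At E10.5 10 were higher in mutants, against 7.3% of all genes, and 0 lower, and at E9.5 none was called. With the length trend removed 1 ridge gene had a passed change, and with E10.5 restricted to the libraries named 41 none did. Fgf8 (ENSMUSG00000025219.13, on chromosome 19 of mm10 from 45736798 up to 45742915), the main FGF ligand of the ridge, was at 146, 184 and 152 CPM in the E10.5 mutants, against 40.02, 54.8 and 43.9 CPM in the E10.5 controls. At E9.5 the mutants held 59.6, 31.6 and 58.8 CPM, against 78.1, 43.4 and 49.2 CPM in controls. All E10.5 mutants were above the 9 other libraries, which overlapped with each other, and the change was 1.98 ± 0.47 (adjusted p = 0.0393). It rose with stage in mutants by 1.68 (adjusted p = 0.0029) and was not called in controls (-0.30, adjusted p = 0.534).

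The homeobox gene Dlx1 had a change of 1.16 ± 0.26 (adjusted p = 0.0284). Etv4, a transcription factor gene induced by FGF in distal mesenchyme, was at 145 ± 12.3 CPM in mutants and 71.9 ± 8.31 CPM in controls at E10.5, with a change of 1.03 ± 0.20 (adjusted p = 0.0148), while Cyp26b1, whose product clears retinoic acid from the distal bud, had one of -1.26 ± 0.31 (adjusted p = 0.0444). These were the 2 called of 21 distal and FGF response genes. The calls of Fgf8, Dlx1 and Cyp26b1 were fragile: Fgf8 passed only without replicate 2 of the E9.5 controls, replicate 3 of the E9.5 controls or replicate 1 of the E10.5 mutants (adjusted p up to 0.111 otherwise), and it missed the threshold without the pair of libraries that stood apart (adjusted p = 0.173). Cyp26b1 passed only without replicate 2 of the E9.5 controls or replicate 1 of the E10.5 mutants (up to 0.122). Dlx1 was lost without replicate 1 or 3 of the E10.5 controls, replicate 2 or 3 of the E10.5 mutants, or any 1 mutant E9.5 library (up to 0.086), and Etv4 was lost without replicate 2 of the E10.5 controls (adjusted p = 0.0512).

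Markers of surface ectoderm, the tissue that holds the ridge, were counted beside these genes. Of 25 markers, 22 were higher in mutants at E10.5, against 7.3% of all genes, and none at E9.5. The change of effect passed as higher for 2, against 0.925% of all genes, and not for 23. The 2 were Epcam (1.27 ± 0.31, adjusted p = 0.0419) and Cldn7 (1.14 ± 0.28, adjusted p = 0.046), which encode an adhesion and a tight junction protein of epithelia. The summed level of the 25 markers was 1073 to 1540 CPM in the E10.5 mutants, against 536 to 761 CPM in the E10.5 controls, and 728 to 868 CPM in the E9.5 mutants, against 552 to 698 CPM in the E9.5 controls. The part of ectoderm in the ridge and FGF results was not tested. Epcam passed only without replicate 2 of the E10.5 controls, replicate 2 of the E9.5 controls or replicate 1 of the E10.5 mutants, and Cldn7 only without replicate 2 of the E9.5 controls or replicate 1 of the E10.5 mutants (adjusted p up to 0.125 and 0.135 otherwise), and without the pair of libraries that stood apart no ectoderm marker passed. None passed with E10.5 restricted to the libraries named 41 either. With the length trend removed 1 marker passed, and Cldn7 missed the threshold (adjusted p = 0.0849).

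Higher changes with the smallest adjusted p were led by Atg9b (ENSMUSG00000038295.14, on chromosome 5 of mm10 from 24384181 up to 24392143), which encodes a lipid scramblase of autophagy. It was at 13.3, 13.4 and 26.6 CPM in the E10.5 mutants, against 0.902, 1.26 and 1.59 CPM in the E10.5 controls, with mutant replicate 3 above the other 2. Levels at E9.5 were 3.48, 2.54 and 2.8 CPM in mutants, against 4.69, 2.44 and 4.49 CPM in controls, and the genotypes overlapped. It rose with stage by 2.60 in mutants (adjusted p = 3.47e-05) and fell by 1.62 in controls (adjusted p = 0.00149), so the change of effect was 4.22 ± 0.45 (adjusted p = 0.000303). Tubb6, a beta-tubulin gene, was at 121, 93.7 and 121 CPM in the E10.5 mutants, against 41.1, 46.5 and 40.6 CPM in the E10.5 controls. The E9.5 libraries of both genotypes lay at 82.1 to 112 CPM, so the E10.5 controls stood apart as the low group, and the change was 1.53 ± 0.19 (adjusted p = 0.000723).

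Other genes of this rank followed. Ass1, which makes argininosuccinate on the way to arginine, was at 27.6, 26.4 and 35.4 CPM in the E10.5 mutants, against 4.86, 6.89 and 5.48 CPM in the E10.5 controls, with a change of 1.89 ± 0.29 (adjusted p = 0.00263). Pmm1, a phosphomannomutase gene, had a change of 2.12 ± 0.29 (adjusted p = 0.00107), and Man2b1, which encodes a lysosomal mannosidase, one of 0.96 ± 0.14 (adjusted p = 0.00194). Esrra, a nuclear receptor gene of energy metabolism, had a change of 1.19 ± 0.19 (adjusted p = 0.00392). The remaining genes of this rank were Baiap2, which encodes a scaffold of actin protrusions (0.89 ± 0.12, adjusted p = 0.000858), Prr5, which encodes a subunit of mTOR complex 2 (0.85 ± 0.14, adjusted p = 0.00608), and Btbd19 (1.73 ± 0.23, adjusted p = 0.000858). All 9 genes of this and the preceding paragraph passed in each fit with 1 library left out.

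Of 19 integrated stress response genes 3 were higher, against 0.925% of all genes, and 0 lower. They were Eif4ebp1, a repressor of translation (1.18 ± 0.25, adjusted p = 0.0238), and the one-carbon and serine pathway genes Mthfd2 (0.70 ± 0.16, adjusted p = 0.0363) and Psat1 (0.59 ± 0.15, adjusted p = 0.04999). All 3 fell with stage in controls (log2 changes -1.47, -0.82 and -1.12), and without the pair of libraries that stood apart only Eif4ebp1 passed (adjusted p = 0.00811). The E9.5 controls had 160.5, 82.7 and 90.6 CPM of Eif4ebp1, with replicate 1 as the high library. Atf3, a stress-induced transcription factor gene, was the 1 called of 18 immediate early genes, against 2.22% of all genes (1.6 ± 0.36, adjusted p = 0.0302), and it passed in 5 of the 12 fits with 1 library left out (adjusted p up to 0.0869). Eif4ebp1 passed in 6 of these fits, Mthfd2 in the 3 without a control E9.5 library, and Psat1 in the 2 without replicate 2 of the E9.5 controls or replicate 2 of the E9.5 mutants.

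Among the 9 genes whose effect was present at E9.5 and grew were the p53 targets Ccng1, Mdm2, Zmat3, Sesn2 and Ptprv. Of these targets, Ptprv alone passed in all 12 fits with 1 library left out. Across 4 lists with 58 tested targets, 43 were higher and 2 lower in mutants at E10.5, against 7.3% and 6.63% of all genes. At E9.5 15 were higher, against 0.179% of all genes, and 0 lower. Between the stages, the effect changed toward higher for 14 (24.1%, against 0.925% of all genes), lower for 1 and not called for 43, and 48 of the 58 estimates were positive. By role, the change was higher for 6 of 13 targets of cell cycle arrest and feedback, 3 of 13 of cell death, 2 of 15 of repair and metabolism and 3 of 17 others. These targets were chosen with results of the same libraries known, so the shares describe them and are no independent evidence. Without the pair of libraries that stood apart 13 were called higher, and with E10.5 restricted to the libraries named 41, 3 were. Trp53, which encodes p53, had a change of 0.27 ± 0.14 (adjusted p = 0.255).

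**Figure D4:**
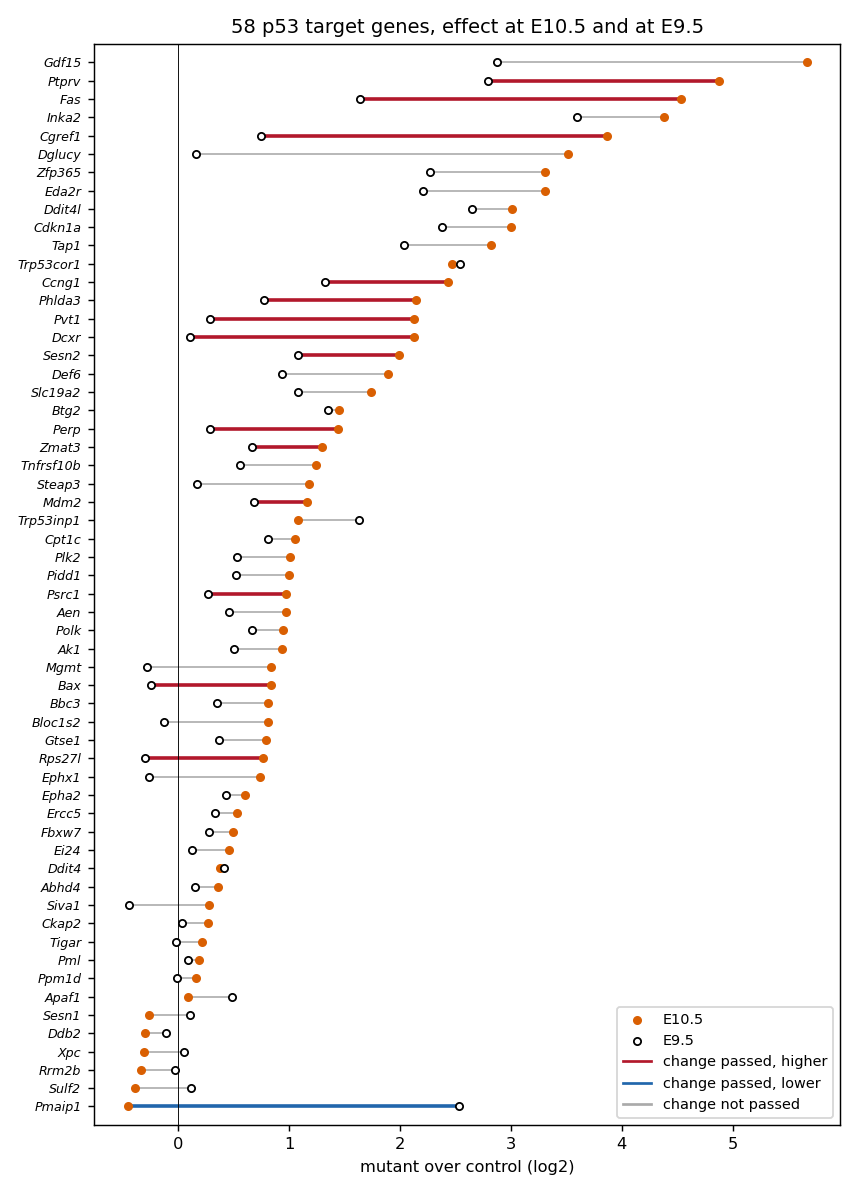
Mutant over control in log2 at E10.5 (filled) and at E9.5 (open) for the 58 tested p53 targets, ordered by the effect at E10.5, with a red line where the change of effect passed higher, a blue line where it passed lower and a grey line where it did not pass. Most filled points lie right of the open ones, and Pmaip1 at the bottom runs the other way.

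The 9 genes whose effect grew were Ccng1, Mdm2, Zmat3, Sesn2, Ptprv, Ltb4r2, Ano3, Hmcn2 and 1700007K13Rik, of which the first 5 are in the p53 lists. The last 3 are outside the rule by which genes were named, and were chosen after their values were seen. Ccng1 (ENSMUSG00000020326.7, on chromosome 11 of mm10 from 40748552 up to 40755311), which encodes cyclin G1, was at 135, 114 and 161 CPM in the E10.5 mutants, against 25.9, 26.5 and 23.8 CPM in the E10.5 controls. In mutants of E9.5 the libraries had 78.6, 67.9 and 74.4 CPM, against 22, 31.4 and 34.7 CPM in controls of that stage. Mutants and controls did not overlap at either stage, and the effect was 2.43 ± 0.18 at E10.5 and 1.32 ± 0.17 at E9.5, a change of 1.11 ± 0.24 (adjusted p = 0.0242). Ptprv, a receptor phosphatase gene known as a p53 target in mouse, was at 37, 38.3 and 60.9 CPM in the E10.5 mutants, against 0.964, 1.68 and 1.97 CPM in the E10.5 controls. A day earlier, at E9.5, mutants were at 17.8, 15.5 and 16.6 CPM, against 1.77, 3.08 and 2.33 CPM for controls. The effect was 4.88 ± 0.32 at E10.5 and 2.79 ± 0.29 at E9.5, and the change 2.09 ± 0.40 (adjusted p = 0.0128).

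Sesn2, which encodes a stress sensor that restrains mTOR, had effects of 1.99 ± 0.14 at E10.5 and 1.08 ± 0.14 at E9.5 and a change of 0.91 ± 0.19 (adjusted p = 0.023). Zmat3, an RNA-binding protein gene, had a change of 0.63 ± 0.15 (adjusted p = 0.0445). Mdm2, the ligase that degrades p53, was at 147, 138 and 159 CPM in the E10.5 mutants, against 66.9, 62.7 and 68.2 CPM in the E10.5 controls. At E9.5 the mutants held 100.4, 96.9 and 88.7 CPM, against 56.2, 62.3 and 60.2 CPM in controls. The groups did not overlap at either stage, and the change was small, at 0.49 ± 0.12 (adjusted p = 0.0478). Outside the p53 lists, Ltb4r2, a leukotriene receptor gene, had effects of 4.82 ± 0.34 at E10.5 and 2.53 ± 0.31 at E9.5 and a change of 2.29 ± 0.44 (adjusted p = 0.0128). In mutants Ltb4r2 was at 13 to 18.6 CPM at E10.5, against 3.25 to 4.55 CPM at E9.5, and in controls it was below 1 CPM at both stages.

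Ptprv, Ltb4r2 and 1700007K13Rik passed in all 12 fits with 1 library left out. Mdm2 passed only without replicate 1 or 2 of the E9.5 controls (adjusted p up to 0.141 in the other fits), and Zmat3 only without a control E9.5 library or replicate 2 of the E10.5 mutants (up to 0.133). Ccng1 was lost without any 1 control E10.5 library, replicate 3 of the E10.5 mutants, or replicate 2 or 3 of the E9.5 mutants (up to 0.081), and Sesn2 without replicate 1 or 3 of the E10.5 controls, replicate 3 of the E10.5 mutants, or replicate 2 or 3 of the E9.5 mutants (up to 0.0766). Hmcn2 passed in 4 of the 12 and Ano3 in 3. Each of these genes except Zmat3 (adjusted p = 0.0792) and Hmcn2 (adjusted p = 0.0873) also passed without the pair of libraries that stood apart.

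Other p53 targets were called at E10.5 and not at E9.5, which does not show that their effect was absent at E9.5. Fas, a death receptor gene, was at 6.02, 5.08 and 7.42 CPM in the E10.5 mutants, against 0.164, 0.332 and 0.299 CPM in the E10.5 controls. Levels at E9.5 were 1.43, 2.18 and 1.36 CPM in mutants, against 0.274, 0.586 and 0.72 CPM in controls. The groups did not overlap at either stage, and the effect was 4.53 ± 0.38 at E10.5 and, not called, 1.64 ± 0.35 at E9.5 (adjusted p = 0.0814), a change of 2.89 ± 0.50 (adjusted p = 0.00715). Cgref1, which encodes a secreted regulator of growth, was at 9.32, 9.05 and 9.9 CPM in the E10.5 mutants, against 0.574, 0.554 and 0.797 CPM in the E10.5 controls, and its change was 3.12 ± 0.46 (adjusted p = 0.002). Its effect at E9.5 was 0.75 ± 0.33 and not called (adjusted p = 0.497). Phlda3, which encodes a repressor of Akt, had a change of 1.37 ± 0.27 (adjusted p = 0.0146), and Dcxr, which encodes a sugar reductase, one of 2.01 ± 0.34 (adjusted p = 0.0067). Pvt1, a long noncoding RNA gene next to Myc, had a change of 1.84 ± 0.28 (adjusted p = 0.00297). These 5 passed in all 12 fits with 1 library left out, and Phlda3 had adjusted p = 0.0518 without the pair of libraries that stood apart.

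Weaker calls were those of Psrc1, a spindle protein gene (0.71 ± 0.15, adjusted p = 0.0249), Perp, a gene of desmosomes and cell death (1.16 ± 0.27, adjusted p = 0.0365), Rps27l, a ribosomal protein paralogue (1.07 ± 0.27, adjusted p = 0.0481), and Bax, which encodes the pore-forming death protein (1.08 ± 0.27, adjusted p = 0.0491). In the E9.5 controls Bax was at 130, 61.7 and 70.4 CPM and Rps27l at 277, 133 and 149 CPM, so replicate 1 was the high library for both, and without the pair of libraries that stood apart the change of Bax was 0.65 (adjusted p = 0.0298) and that of Rps27l 0.61 (adjusted p = 0.0293). Bax and Rps27l passed only in the 3 fits without a control E9.5 library (adjusted p up to 0.125 and 0.124 otherwise). Perp passed in 4 of the 12, those without replicate 2 of the E10.5 controls, replicate 2 of the E9.5 controls, replicate 1 of the E10.5 mutants or replicate 1 of the E9.5 mutants. Psrc1 was lost without replicate 1 or 2 of the E10.5 controls, replicate 3 of the E10.5 mutants, or replicate 2 or 3 of the E9.5 mutants (up to 0.0802).

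The promoters of targets that differed in this way can be compared by sequence. The window ran from 250 bases before to 50 bases after the annotated start in RefSeq on GRCm38.p6, and it was searched on both strands for the p53 decamer, the repeated unit of p53 response elements, a motif that is its own reverse complement. The decamer stood in 8.36% of 32851 promoters of all genes. An entry was found for 47 of the 58 targets, and 17 of these (36.2%) held a decamer in at least 1 promoter, against 9.55% of all genes. Of the 10 targets with an entry whose change of effect passed, 4 held a decamer, namely Ccng1, Mdm2, Bax and Rps27l. The first 3 are shown because their change passed, and Cdkn1a because its effect was present at both stages and its change did not pass. Capitals mark the decamers, and each sequence runs 5′ to 3′ on the strand of the gene.
Ccng1, chr11:40755237-40755536, strand -: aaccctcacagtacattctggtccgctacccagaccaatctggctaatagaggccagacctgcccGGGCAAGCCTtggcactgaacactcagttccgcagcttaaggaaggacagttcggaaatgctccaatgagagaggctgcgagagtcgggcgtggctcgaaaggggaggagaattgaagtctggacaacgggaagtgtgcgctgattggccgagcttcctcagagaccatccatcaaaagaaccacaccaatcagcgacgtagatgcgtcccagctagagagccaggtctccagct
Mdm2, chr10:117710709-117711008, strand -: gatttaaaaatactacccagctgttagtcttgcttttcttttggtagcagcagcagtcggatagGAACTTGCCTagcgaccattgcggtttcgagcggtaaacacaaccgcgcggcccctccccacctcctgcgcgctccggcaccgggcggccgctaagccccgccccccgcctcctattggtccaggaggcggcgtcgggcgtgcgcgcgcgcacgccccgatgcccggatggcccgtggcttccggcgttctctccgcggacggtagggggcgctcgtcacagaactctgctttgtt
Bax, chr7:45466849-45467148, strand -: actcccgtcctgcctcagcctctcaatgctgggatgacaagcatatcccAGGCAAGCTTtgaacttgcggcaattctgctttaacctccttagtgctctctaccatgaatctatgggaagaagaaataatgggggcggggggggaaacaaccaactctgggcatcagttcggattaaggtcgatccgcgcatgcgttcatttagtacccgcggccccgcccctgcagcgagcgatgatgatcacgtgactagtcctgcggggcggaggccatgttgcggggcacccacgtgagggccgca
Cdkn1a, chr17:29090729-29091028, strand +: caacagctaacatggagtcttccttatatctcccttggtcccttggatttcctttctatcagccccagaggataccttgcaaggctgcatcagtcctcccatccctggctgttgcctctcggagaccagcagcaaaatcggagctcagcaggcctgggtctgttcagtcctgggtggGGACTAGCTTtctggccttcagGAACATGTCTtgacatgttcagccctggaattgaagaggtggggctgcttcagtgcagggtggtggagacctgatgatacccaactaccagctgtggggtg
Cdkn1a alone of the 47 held 2 decamers within 13 bases of each other in any promoter. It did so in the promoter shown, while its promoter at chr17:29093519-29093818 held no decamer. Such a pair stood in 0.0731% of all promoters, a share per promoter and not per gene. Btg2, whose effect was also present at both stages without a passed change, held no decamer. A match in these windows is a description of letters, and binding was not measured here.

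A second set of targets had large effects at both stages with no change called. Cdkn1a (ENSMUSG00000023067.14, on chromosome 17 of mm10 from 29090976 up to 29100727), the gene of the cyclin-dependent kinase inhibitor p21, was at 171, 186 and 199 CPM in the E10.5 mutants, against 23.5, 24.9 and 20.9 CPM in the E10.5 controls. In mutants of E9.5 the libraries had 62.7, 56.5 and 54.6 CPM, against 10.6, 9.11 and 13.8 CPM in controls of that stage. The groups were far apart at both stages, with effects of 3.00 ± 0.14 at E10.5 and 2.38 ± 0.14 at E9.5, and the change of 0.63 ± 0.18 did not pass (adjusted p = 0.0819). It passed without replicate 2 of the E9.5 controls (adjusted p = 0.0158) and with DESeq2 (adjusted p = 0.0263). Cdkn1a rose with stage in both genotypes, by 1.68 in mutants (adjusted p = 3.54e-07) and 1.05 in controls (adjusted p = 2.89e-05).

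Among genes called at both stages, the changes nearest 0 included those of Btg2, Dennd2c and Ddit4l. Btg2, an antiproliferative gene, was at 39.1, 40.5 and 47.9 CPM in the E10.5 mutants, against 14.3, 17.7 and 14.6 CPM in the E10.5 controls. A day earlier, at E9.5, mutants were at 16.2, 14.9 and 15.2 CPM, against 4.94, 6.01 and 7.24 CPM for controls. Its level was higher at E10.5 in both genotypes, and the effects of 1.45 ± 0.14 at E10.5 and 1.35 ± 0.14 at E9.5 left a change of 0.11 ± 0.19 (95% interval -0.30 to 0.51). Dennd2c had a change of 0.20 ± 0.30 (95% interval -0.43 to 0.84), and Ddit4l, which encodes an inhibitor of mTOR signalling, one of 0.36 ± 0.31 (95% interval -0.30 to 1.02). Each interval held 0.

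Over all 36 genes higher in mutants at E9.5, 34 were also called higher at E10.5, and 32 had a larger estimate there. For 9 of the 36 the change of effect passed as higher, for 1 as lower, and for 26 it did not pass. The median change of the 36 was 0.885, and they were chosen by their estimate at E9.5, which enters the change.

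The 1 effect called higher at E9.5 that vanished was that of Pmaip1 (ENSMUSG00000024521.8, on chromosome 18 of mm10 from 66458533 up to 66465565), which encodes the BH3-only death protein Noxa. It was at 35.4, 38.4 and 41.4 CPM in the E10.5 mutants, against 42.4, 51.3 and 64.2 CPM in the E10.5 controls. At E9.5 the mutants held 7.35, 7.54 and 10.04 CPM, against 1.87, 1.26 and 1.19 CPM in controls. At E10.5 all mutants were below all controls, with an effect of -0.45 ± 0.22 that was not called (adjusted p = 0.182), and at E9.5 all mutants were above all controls, with an effect of 2.53 ± 0.25 (adjusted p = 4.41e-05). It rose with stage in both genotypes, by 2.21 in mutants (adjusted p = 6.39e-06) and by 5.20 in controls (adjusted p = 2.88e-09). Its change of effect was -2.99 ± 0.33 (adjusted p = 0.000372), and it passed in all 12 fits with 1 library left out and with E10.5 restricted to the libraries named 41 (adjusted p = 0.00502). The level in mutants was thus higher at E10.5 than at E9.5, and it was the larger rise in controls that removed the difference. Another BH3-only gene, Bmf, was the 1 called of 29 genes of the apoptosis machinery, where 2.22% of all genes were called, at 30.3 ± 5.58 CPM in mutants and 66.8 ± 10.7 CPM in controls at E10.5, with a change of -1.34 ± 0.25 (adjusted p = 0.0115) that also passed in all 12 fits. With E10.5 restricted to the libraries named 41, Bmf missed the threshold (adjusted p = 0.0539).

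The 1 gene called lower in mutants at E9.5 was 1500015A07Rik, and this effect vanished too. It was at 17.2, 25.5 and 15.3 CPM in the E10.5 mutants, against 13.9, 13.2 and 6.68 CPM in the E10.5 controls. Levels at E9.5 were 6.94, 7.38 and 4.68 CPM in mutants, against 45.8, 27 and 17.5 CPM in controls. The E9.5 controls spread over more than a 2-fold range, the effect was 0.78 ± 0.31 at E10.5 (adjusted p = 0.106) and -2.24 ± 0.32 at E9.5 (adjusted p = 0.00206), and the change was 3.02 ± 0.45 (adjusted p = 0.002). The 7 genes with a passed change that were called at neither stage had opposite estimates at the stages. They were Saa2, Rpl38-ps1, Gm33051 and AC125110.1 (higher) and Myom1, Akap6 and Cybb (lower), of which the pseudogene Rpl38-ps1 is uncertain because it can share reads with Rpl38. Myom1, a sarcomere gene, was at 2.31, 2.41 and 2.26 CPM in the E10.5 mutants, against 3.38, 3.59 and 3.91 CPM in the E10.5 controls. In mutants of E9.5 the libraries had 2.74, 2.48 and 2.66 CPM, against 1.35, 1.74 and 2.04 CPM in controls of that stage, so mutants were all lower at E10.5 and all higher at E9.5. Its change was -1.26 ± 0.30 (adjusted p = 0.0398), and it passed only without a control E9.5 library (adjusted p up to 0.0998 in the other fits). Cybb was at 0 CPM in each E9.5 control, so no fold is given for it.

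**Figure D5:**
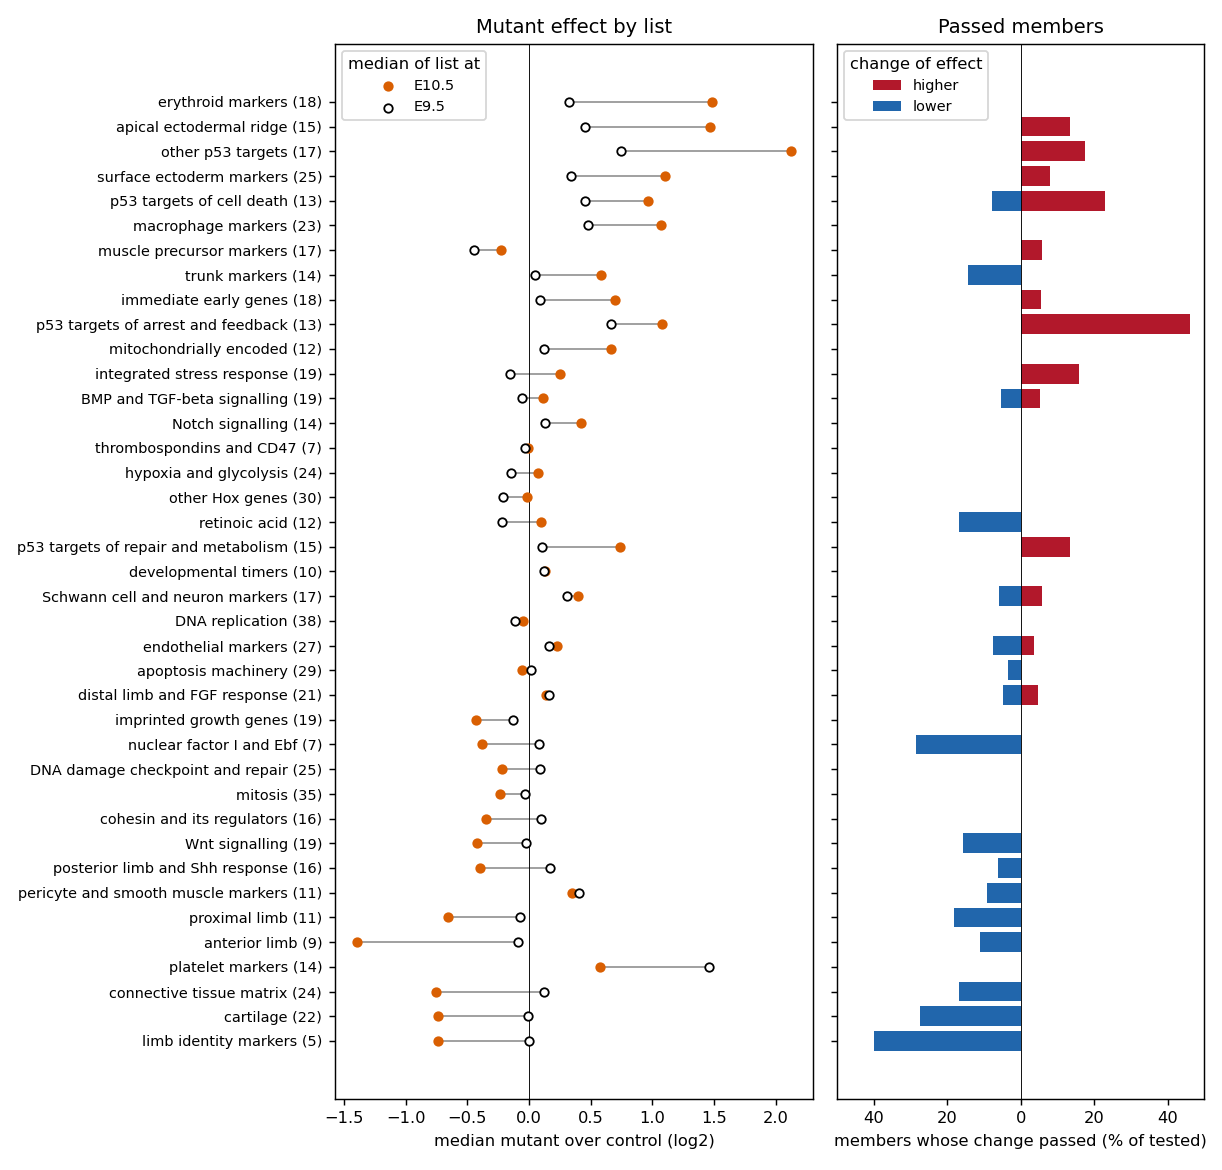
Left, median mutant over control in log2 of each gene list at E10.5 (filled) and at E9.5 (open), with the number of tested genes in parentheses. Right, the share of each list's tested members whose change of effect passed higher (red) or lower (blue), with 6 of 13 higher for p53 targets of arrest and feedback, and 2 of 5 lower for limb identity markers, 2 of 7 for nuclear factor I and Ebf genes and 6 of 22 for cartilage.

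No change of effect passed in 14 of these 39 lists. Among 16 genes of cohesin and its regulators, 4 were lower at E10.5, where 6.63% of all genes were lower, and none at E9.5, 14 of the 16 changes were negative, and the smallest adjusted p was that of the cohesin subunit gene Rad21 (-0.46 ± 0.15, adjusted p = 0.111). Of 35 mitosis genes 7 were lower at E10.5, read against the same share, with Top2a, which untangles replicated DNA, having the smallest adjusted p of change (-0.61 ± 0.19, adjusted p = 0.0981). Of 38 DNA replication genes 2 were lower at E10.5, where 6.63% of all genes were lower (smallest for Ccne1, 0.53 ± 0.21, adjusted p = 0.166), and of 25 DNA damage checkpoint and repair genes 1 was higher, where 7.3% of all genes were higher (smallest for Clspn, -0.56 ± 0.21, adjusted p = 0.155). Without replicate 2 of the E9.5 controls, Rad21, Top2a and Ccne1 passed, with adjusted p of 0.0463, 0.0453 and 0.0435. The other lists with none passed included imprinted growth genes, Notch signalling, other Hox genes, developmental timers, hypoxia and glycolysis, and thrombospondins with CD47. Cd47 itself had a change of 0.32 ± 0.20 (adjusted p = 0.332). Lin28a, a developmental timer gene, fell with stage in both genotypes (-2.64 in mutants and -4.19 in controls), and the change of effect of 1.55 ± 0.42 did not pass (adjusted p = 0.0628).

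Of 18 erythroid markers 14 were higher in mutants at E10.5, against 7.3% of all genes, and 0 at E9.5, all 18 changes were positive with a median of 1.14, and none passed. Their summed level was 6478 to 20353 CPM in the E10.5 mutants, against 3034 to 6273 CPM in the E10.5 controls, and 4096 to 4519 CPM in the E9.5 mutants, against 2486 to 4806 CPM in the E9.5 controls, with the highest value in replicate 3 of the E10.5 mutants. Of 23 macrophage markers 9 were higher at E10.5, against 7.3% of all genes, and none of the changes passed. Mitochondrially encoded genes took 0.943% to 1.03% of counts in the E10.5 mutants, against 0.501% to 0.727% in the E10.5 controls, and none of the 12 changes passed. The part of these cells and transcripts in the changes of other genes was not tested.

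Among 27 endothelial markers, read against 0.925% of all genes higher and 1.29% lower, Eng was higher (0.78 ± 0.17, adjusted p = 0.0269) and Fli1 (-1.38 ± 0.24, adjusted p = 0.00757) and Esm1 (-2.51 ± 0.62, adjusted p = 0.0444) were lower. Of the 27 estimates of change 14 were positive and 13 negative. At E10.5 8 of these markers were higher in mutants and 3 lower, against 7.3% and 6.63% of all genes, and at E9.5 none was called. Fli1 passed in all 12 fits with 1 library left out, Esm1 only without replicate 1 or 2 of the E9.5 controls, and Eng was lost without replicate 1 or 2 of the E10.5 controls, replicate 2 or 3 of the E10.5 mutants, or replicate 2 or 3 of the E9.5 mutants. Of 11 pericyte and smooth muscle markers 1 was lower, against 1.29% of all genes, and 0 higher. It was the receptor gene Pdgfrb, which limb mesenchyme also expresses (-0.79 ± 0.18, adjusted p = 0.0286). Of 17 muscle precursor markers 1 was higher, against 0.925% of all genes, and 0 lower, with 10 positive and 7 negative estimates of change. The 1 called describes that gene and not the list. It was Lbx1, a marker of migrating muscle precursors, at 53.1, 104 and 69.7 CPM in the E10.5 mutants, against 31.8, 29.8 and 28.7 CPM in the E10.5 controls, with a change of 1.58 ± 0.37 (adjusted p = 0.0356). It passed only without replicate 2 or 3 of the E9.5 controls, replicate 1 of the E10.5 mutants or replicate 3 of the E9.5 mutants. Of 17 Schwann cell and neuron markers 1 was higher, against 0.925% of all genes, and 1 lower, against 1.29%. The neuronal tubulin gene Tubb3 was the higher one (1.05 ± 0.21, adjusted p = 0.0184) and Dcx the lower (-1.57 ± 0.35, adjusted p = 0.0296). With the length trend removed neither passed. Of 14 trunk markers 2 were lower, against 1.29% of all genes, and 0 higher. These were Foxc1 (-1.75 ± 0.40, adjusted p = 0.0312) and Meox2 (-1.03 ± 0.26, adjusted p = 0.0458). They went against their list, where 11 of 14 estimates were positive and the median change was 0.59. Pdgfrb, Dcx, Foxc1 and Meox2 passed in 3 to 6 of these 12 fits and Tubb3 in 9. Abcb1b, with the largest change among genes named by the size of their change (4.95 ± 1.22, adjusted p = 0.0488), was at 4.62, 3.78 and 71.7 CPM in the E10.5 mutants and at 0.8, 0.598 and 0.777 CPM in the E10.5 controls, and without replicate 3 of the E10.5 mutants and replicate 1 of the E9.5 controls the change was 2.45 (adjusted p = 0.0186). It passed in 3 of the 12 fits with 1 library left out, those without replicate 2 of the E9.5 controls, replicate 1 of the E10.5 mutants or replicate 2 of the E10.5 mutants (adjusted p up to 0.117 in the others).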

How the data were processed

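RNA was extracted from individual limb buds and sequenced, per the labels' protocols, and the submitters' processing notes name cutadapt, STAR, featureCounts, limma, mm10 and GENCODE M22. The authors deposited 1 table per library; per the file headers its counts are paired-end, reverse-stranded reads per gene from featureCounts 1.6.4, with no normalization. The authors also deposited a table of log2 FPKM, used as an alternative only. Matching of gene IDs to symbols covered 99.8% of 55487 IDs.

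All 18 libraries entered 1 fit with a coefficient for each of 6 groups (edgeR 4.0.16 in R 4.3.3: filterByExpr, TMM scaling, robust quasi-likelihood F test). The change of effect is a contrast of 4 coefficients over 12 libraries, with Benjamini-Hochberg adjustment over 20118 genes and a threshold of 0.05. Each SE was back-calculated as the absolute log2 estimate divided by the square root of its F, and the 95% intervals were built from that SE. On simulated counts for 20118 genes, this contrast recovered 54% of genes raised and 42% of genes lowered by 1 on the log2 scale, and 92% and 78% at 2. Of its 139 calls 6 were false. The simulated libraries had no trend on gene length and none that stood apart, so these rates need not hold for the real libraries. Depth was 36390557 to 56230058 counts per library.

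Genes were named by rule: Esco2, Trp53, Cdkn1a, Mdm2, Sox9, Fgf8, Shh and Cd47; the 10 smallest adjusted p in each direction and up to 6 largest changes per class (mean log2 CPM of at least 1, predicted genes left out); up to 4 passed members of each list, or the 1 with the smallest p; and the 4 changes nearest 0 among genes called at both stages. Some were left out for readability. Other passed members of lists, and predicted genes, were named after their values were seen. The members and lists were chosen with earlier results of these data known. Alternatives were other scalings, filters, tools, a length correction, a replicate block and single libraries left out. Libraries of E11.5 entered only the filter and the estimate of spread.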

Additional observations from a re-analysis of the deposited data

Results flagged for a closer look

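The change of effect between the stages, tested as an interaction, differed from 0 for 186 genes in the higher and 260 in the lower direction. The 11 of these genes that were called at E9.5 already are listed here, because their effects at E10.5 and E9.5 differed although a difference between genotypes was present early. Pmaip1 had a change of effect of -2.99, and 1500015A07Rik one of 3.02. For the genes higher in mutants at both stages, the change was 2.57 for 1700007K13Rik, 2.55 for Ano3, 2.29 for Ltb4r2, 2.09 for Ptprv and 2.04 for Hmcn2. It was 1.11 for Ccng1, 0.91 for Sesn2, 0.63 for Zmat3 and 0.49 for Mdm2. Of the 9 genes higher at both stages, 1700007K13Rik, Ltb4r2 and Ptprv passed in each of the 12 fits with 1 library left out, and so did Pmaip1 and 1500015A07Rik.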

How the results depend on the processing

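All 446 called changes of effect kept their sign under each alternative (428 of 428 found in the table of log2 FPKM). They were chosen by their p in these same libraries, which the alternatives reuse, so kept signs are no independent evidence. Calls of the change of effect were 184 higher and 252 lower with DESeq2's size factors in edgeR, 161 and 210 with no filter, 148 and 257 with voom, 210 and 291 from log2 FPKM, 272 and 312 with a length correction, and 155 and 232 without the pair of libraries that stood apart. They moved to 89 and 129 with the 12 libraries fitted alone, 634 and 653 with DESeq2, and 18 and 37 with E10.5 restricted to the libraries named 41. With the replicate block they were 212 and 403. Whether replicate numbers pair the samples is not in the labels. The correlations of same-numbered mutants and controls were 0.294, 0.0773 and -0.041 at E10.5 and 0.452, 0.322 and 0.101 at E9.5. Mutant E9.5 replicate 2 correlated best with control E9.5 replicate 3 (0.359), and mutant E10.5 replicate 3 with control E10.5 replicate 2 (0.151). The other mutants correlated best with the same-numbered control, so these values do not decide the question. With 1 library left out, calls of the change of effect were 40 to 1379 higher and 88 to 1168 lower. The effect at E10.5 moved to 438 higher and 451 lower with E10.5 restricted to the libraries named 41, and to 760 to 2669 higher and 748 to 2678 lower with 1 library left out. The effect at E9.5 moved to 115 higher and 16 lower with DESeq2, and lower calls to 5 from log2 FPKM, 2 with a length correction and 2 with the restriction; with 1 library left out 29 to 58 were higher and 1 to 18 lower. Alternatives for the changes with stage were chosen after the data were seen, and no block was fitted there because the numbers are nested in stage. In mutants 1211 were higher and 435 lower with the restriction, 1348 were lower with DESeq2 and 1458 without the pair of libraries, and 1176 to 2673 were higher and 466 to 2053 lower with 1 library left out. In controls 1529 were lower with the restriction, and 2144 to 3595 were higher and 1543 to 3390 lower with 1 library left out. The causes of these movements were not tested. Depth limits low genes, and CPM of a few counts carry counting error beyond the spread shown.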
